A study of Mus musculus with 12 samples.

Results

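Reactive astrocyte genes are a set of 10 genes named for the form astrocytes take when brain tissue is injured, inflamed or aged. The set was fixed by gene name: Gfap, Vim, Serpina3n, Osmr, Aspg, Cd44, Timp1, S1pr3, Steap4 and Cp. All 10 were found once each among the 43346 genes of the table, and all 10 were among the 22553 genes that passed the filter on low counts. Astrocytes are the glial cells that wrap synapses and vessels, and when they become reactive they enlarge and fill with intermediate filaments built from the proteins of Gfap and Vim. Cytokines of the interleukin-6 family, which includes oncostatin M, drive much of this change through receptors that pair with gp130 and through the transcription factor STAT3. The other members are secreted proteins, surface receptors and enzymes: Serpina3n and Timp1 encode protease inhibitors, Osmr, Cd44 and S1pr3 receptors, and Aspg, Steap4 and Cp enzymes of asparagine, iron and copper chemistry.

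RNA came from 12 mouse brain libraries, 4 a group, made from cross-sections that held hippocampus and cortex. Old_CP2 mice, aged 23 months and of the labelled strain C57BL/6;SJL-Tg, drank CP2, an inhibitor of mitochondrial complex I, at 25 mg per kg per day in water with 0.1% polyethylene glycol (PEG) from 9 months of age. Old mice, alike in age and labelled strain, drank the 0.1% PEG water alone from 9 months. Young mice were untreated, aged 3 months and of the labelled strain C57BL/6. All 3 groups were labelled wild type, while the design text of the series speaks of APP/PS1 mice beside non-transgenic ones, and this conflict could not be resolved. Age, strain label, vehicle and the tissue markers given below (choroid plexus, midbrain and hindbrain) changed together between Old and Young. They cannot be told apart. The labels do not say that each library is a separate animal, so p-values measure the spread between these libraries. Below, "Old 7" is the Old library labelled 7, and so on.

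The depth was 78021395 to 99449665 counts in Old_CP2, 70548781 to 94741585 in Old and 77469073 to 91549618 in Young libraries. Levels are given as normalised CPM, in which a gene's count in a library is divided by the depth and a composition factor. The 17 astrocyte identity markers fixed as a check on the tissue, such as Aldoc and Gja1, summed to 7341 to 8054 CPM in Old_CP2, 8175 to 8803 in Old and 6646 to 7552 in Young libraries, so astrocyte RNA was present throughout. Other tissue differed between the groups as well. Summed choroid plexus markers (9 genes) ran from 28.94 to 848.3 CPM in Old_CP2, from 33.4 to 989.1 in Old and from 1245 to 2007 in Young, with the lowest levels in Old_CP2 11, Old 9, Old_CP2 15 and Old 7. Summed midbrain and hindbrain markers were at 10.72 to 59.71 CPM in Old_CP2, 17.02 to 54.84 in Old and 0.738 to 1.78 in Young, and summed red blood cell markers at 227.6 to 443 CPM, 81.58 to 147.7 and 59.23 to 90.97 in the same order of groups. No marker of these lists was at 0 in all libraries. In bulk tissue, fewer cells of a type and less RNA per cell cannot be told apart.

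Per length of transcript, Gfap was by far the most abundant of the 10 genes. Its reads per length and depth (RPKM, the scale on which levels of different genes are compared here) averaged 75.54 ± 6.36 in Old_CP2, 72.21 ± 16.83 in Old and 41.29 ± 6.03 in Young libraries (SD, n = 4 each). Serpina3n came next at 16.25 ± 3.80, 11.86 ± 3.95 and 8.16 ± 2.33 RPKM, and Vim after it at 6.72 ± 0.50, 5.43 ± 1.12 and 4.41 ± 0.99 RPKM, in the same order of groups. These 3 and the next gene below them did not overlap in any group. Cp, S1pr3, Aspg, Cd44 and Timp1 formed a middle band. Of genes next to each other in its order, the RPKM values of S1pr3 and Aspg and of Aspg and Cd44 overlapped in Old_CP2. Those of Cp and Aspg and of Cd44 and Timp1 did so in Old, and those of S1pr3 and Cp, Aspg and Cd44, and Cd44 and Timp1 in Young. Of genes further apart in that order, Cp and Aspg overlapped in Old_CP2, and Aspg and Timp1 in Young. Osmr was ninth in each group at 0.357 ± 0.037, 0.282 ± 0.030 and 0.206 ± 0.023 RPKM. Steap4 was last at 0.104 ± 0.027, 0.094 ± 0.028 and 0.118 ± 0.035 RPKM, with 22 to 52 reads a library. Gfap alone supplied 73.3 to 76.6% of the summed CPM of the 10 genes in Old_CP2 libraries, 75.2 to 79.8% in Old and 71.5 to 73.8% in Young. That sum reached 472.5 to 552.7 CPM in Old_CP2 and 415.1 to 619.3 CPM in Old, and both ranges lay above the 250.8 to 334 CPM of Young.

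Promoter windows, from 250 bases before to 50 bases after the start site, are shown for 4 genes because the STAT factors named above and the AP-1 factors, which act in injury responses, have short recognition motifs that can be looked for in them. RefSeq (GRCm38.p6, the same assembly as the mm10 coordinates) held 11 such windows for the 10 genes, with 2 for Cp. Sequences run 5′ to 3′ along the gene's own strand, and capitals mark a motif match on either strand. The Gfap window (chr11:102897151-102897450, minus strand) has its match across the start site, and the Steap4 window (chr5:7960222-7960521, plus strand) has its first match 116 bases before it. The Osmr window (chr15:6874264-6874563, minus strand) and the first Cp window (chr3:19956804-19957103, plus strand) hold the AP-1 matches. For Gfap and Osmr, the start site RefSeq gives here lies inside the span listed for the gene in the table.
Gfap: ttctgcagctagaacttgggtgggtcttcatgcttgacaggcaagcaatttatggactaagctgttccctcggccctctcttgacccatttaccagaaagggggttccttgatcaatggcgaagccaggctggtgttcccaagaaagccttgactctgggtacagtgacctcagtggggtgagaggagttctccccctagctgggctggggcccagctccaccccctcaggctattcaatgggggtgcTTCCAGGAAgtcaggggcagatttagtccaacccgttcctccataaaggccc
Steap4: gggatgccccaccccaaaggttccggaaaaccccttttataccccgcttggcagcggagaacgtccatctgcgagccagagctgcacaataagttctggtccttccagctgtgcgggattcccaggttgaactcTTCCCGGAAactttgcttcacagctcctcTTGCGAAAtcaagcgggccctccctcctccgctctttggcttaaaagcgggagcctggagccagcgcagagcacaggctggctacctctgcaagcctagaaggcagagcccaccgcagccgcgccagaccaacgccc
Osmr: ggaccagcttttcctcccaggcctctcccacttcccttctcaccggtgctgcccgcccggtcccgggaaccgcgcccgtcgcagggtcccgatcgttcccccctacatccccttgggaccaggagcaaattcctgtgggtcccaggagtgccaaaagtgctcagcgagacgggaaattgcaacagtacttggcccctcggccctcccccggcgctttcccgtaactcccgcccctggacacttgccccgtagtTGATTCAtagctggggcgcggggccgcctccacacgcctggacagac
Cp: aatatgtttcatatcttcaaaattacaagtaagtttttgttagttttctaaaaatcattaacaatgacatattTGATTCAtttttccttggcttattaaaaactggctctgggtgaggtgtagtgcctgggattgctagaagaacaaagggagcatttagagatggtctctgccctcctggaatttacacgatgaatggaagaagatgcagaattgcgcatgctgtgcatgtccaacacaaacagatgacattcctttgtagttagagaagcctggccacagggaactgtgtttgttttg
The STAT motif TTCNNNGAA occurred in 2 of the 11 windows, as TTCCAGGAA in Gfap and TTCCCGGAA in Steap4, and in 8.3% of all 32851 mouse windows. The AP-1 motif TGANTCA occurred in 2 windows, as TGATTCA in both Osmr and Cp, and in 7.81% of all windows. The C/EBP motif TTGCNNAA, for factors of the acute-phase response, occurred in 2 windows, as the second match of Steap4 and in the second Cp window, and in 10.8% of all windows. No matches overlapped each other. A match describes letters only: of the 2 genes with a STAT match, Gfap was the most abundant of the 10 and Steap4 the least.

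Old was set against Young to see what differed at 23 months of age. Gfap, Aspg, Osmr and Cp were higher in Old, with fold changes of 1.75, 2.01, 1.37 and 1.45, and no gene of the set was called lower. So 4 of the 10 were called higher by edgeR's quasi-likelihood test at an adjusted p under 0.05 over all genes, against 3.96% of all genes tested called higher, 2.74% called lower and so 6.7% either way. At an unadjusted p under 0.05, 6 of the 10 passed, as did 21.4% of all genes. In the same 4 genes, and in no others of the set, every Old library was above every Young library, which held for 6.94% of all genes, with the opposite order in 6.32%. The median log2 fold change was 0.42 over the 10 genes and 0.00 over all genes tested, and 8 of the 10 lay above 0, as did 49.1% of all genes.

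**Figure D1:**
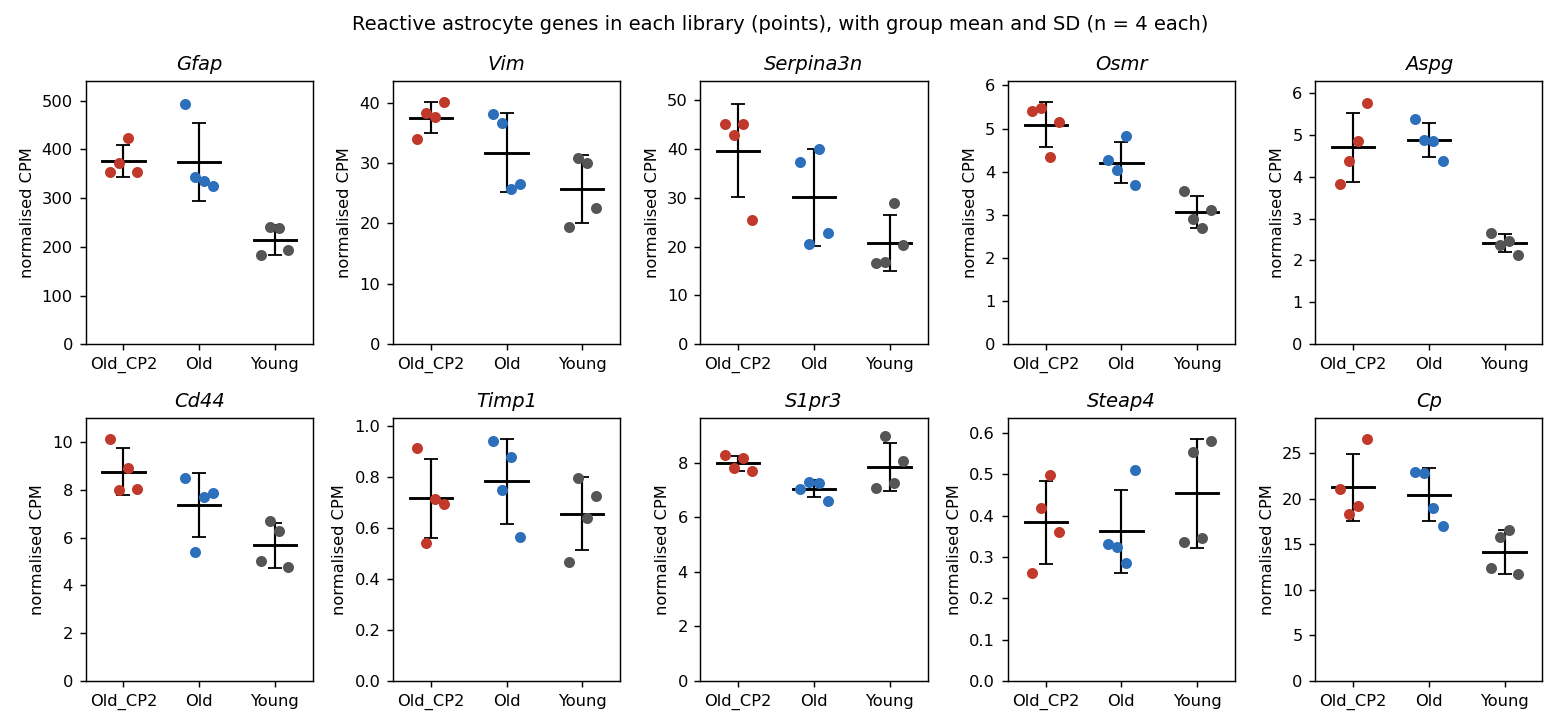
Normalised CPM of each of the 10 genes in every library (points), with the group mean (bar) and SD (whiskers, n = 4 libraries each), for Old_CP2, Old and Young from left to right. All 8 Old_CP2 and Old libraries lie above all 4 Young libraries for Gfap, Osmr, Aspg and Cp. The values of Timp1 and of Steap4 overlap between all groups.

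The intermediate filament genes came first in abundance. Gfap (chromosome 11, 102887336 to 102900912, mm10), the main filament of astrocytes, had 354.2, 372.3, 423.3 and 352.8 CPM in Old_CP2, 494.4, 343.2, 334.3 and 325.1 CPM in Old, and 183.4, 241.5, 238.8 and 193.1 CPM in Young libraries. The lowest Old library stood well above the highest Young one, and Old 7 stood apart from the other 3 of its group. The log2 fold change of Old over Young was 0.81 ± 0.13 (SE; edgeR adjusted p = 0.00491), and it was 0.65 without Old 7, still called. Vim (chromosome 2, 13573927 to 13582826), the vimentin of reactive astrocytes that endothelium, ependyma and fibroblasts also make, had 34, 38.36, 37.64 and 40.09 CPM in Old_CP2, 38.2, 36.58, 25.74 and 26.46 CPM in Old, and 19.38, 30.92, 29.95 and 22.62 CPM in Young. Old 9 and Old 10 fell within the Young range, and the difference of 0.30 ± 0.16 was not called (edgeR adjusted p = 0.288).

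Serpina3n (chromosome 12, 104406729 to 104414329), a secreted inhibitor of serine proteases, had 45.2, 42.78, 45.05 and 25.42 CPM in Old_CP2, 37.23, 20.43, 39.97 and 22.84 CPM in Old, and 16.56, 16.92, 28.97 and 20.31 CPM in Young. Old split into a higher and a lower pair of libraries, and the lower pair lay among the Young values. Its log2 fold change of 0.54 ± 0.25 was not called (edgeR adjusted p = 0.228). Close relatives of Serpina3n stand beside it on the chromosome, and the handling of reads that match several of them is not given in the sources used here, so its level is uncertain to that extent. Timp1 (chromosome X, 20870166 to 20874735), an inhibitor of matrix metalloproteinases, had 0.916, 0.540, 0.716 and 0.694 CPM in Old_CP2, 0.940, 0.750, 0.881 and 0.563 CPM in Old, and 0.466, 0.797, 0.639 and 0.725 CPM in Young, which stood for 36 to 88 reads a library. The groups overlapped throughout, and the log2 fold change was 0.24 ± 0.22 (edgeR adjusted p = 0.591). Timp1 lies inside the span of the neuronal gene Syn1, which had means of 442.7 CPM in Old_CP2, 405.6 in Old and 465.5 in Young. The kit did not mark the strand, so reads of both genes cannot be told apart by strand.

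Of the receptors, Osmr (chromosome 15, 6813577 to 6874969), the subunit that binds oncostatin M, had 5.41, 5.47, 4.34 and 5.14 CPM in Old_CP2, 4.28, 4.04, 4.84 and 3.69 CPM in Old, and 3.56, 2.90, 2.70 and 3.11 CPM in Young. Old and Young met closely, at 3.69 and 3.56 CPM, without overlap. The log2 fold change was 0.46 ± 0.12 (edgeR adjusted p = 0.0378). Osmr was not called in the fit of only Old and Young libraries (0.46, edgeR adjusted p = 0.0585). The call was lost without Young 3, Young 4, Young 5, Old 7, Old 8 or Old 9 (edgeR adjusted p = 0.0842, 0.101, 0.0713, 0.0768, 0.0552 and 0.0944), with a fold change of 0.39 to 0.54 over all fits that left out 1 library. Cd44 (chromosome 2, 102811141 to 102901665), the receptor for hyaluronan and osteopontin, had 10.12, 8.00, 8.90 and 8.03 CPM in Old_CP2, 8.49, 5.41, 7.70 and 7.88 CPM in Old, and 5.00, 6.67, 6.29 and 4.77 CPM in Young. Only Old 8 kept the groups from separating. The difference of 0.38 ± 0.15 was not called (edgeR adjusted p = 0.155), and it was called without Old 8 (0.50, adjusted p = 0.0415). S1pr3 (chromosome 13, 51408618 to 51422797), a receptor for the lipid sphingosine 1-phosphate, had 8.27, 7.80, 8.17 and 7.70 CPM in Old_CP2, 7.02, 7.31, 7.24 and 6.61 CPM in Old, and 7.07, 8.98, 7.24 and 8.07 CPM in Young. It was one of 2 genes with a value below 0, at -0.15 ± 0.08, and was not called (edgeR adjusted p = 0.317).

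Of the enzymes, Aspg (chromosome 12, 112106683 to 112127573), an asparaginase, had 3.82, 4.38, 4.86 and 5.75 CPM in Old_CP2, 5.37, 4.88, 4.85 and 4.38 CPM in Old, and 2.67, 2.37, 2.47 and 2.14 CPM in Young. All Old libraries lay far above all Young ones, and the log2 fold change was the largest of the set, 1.01 ± 0.13 (edgeR adjusted p = 0.00123), rank 39 by p among the 22553 genes. Cp (chromosome 3, 19957054 to 20009145), the copper-carrying ferroxidase ceruloplasmin that astrocytes hold on their surface, had 21.03, 18.29, 19.25 and 26.52 CPM in Old_CP2, 22.95, 22.85, 19.03 and 17.04 CPM in Old, and 12.36, 15.79, 16.57 and 11.73 CPM in Young. Old lay just above Young, with its lowest library at 17.04 CPM beside a highest of 16.57. The log2 fold change was 0.54 ± 0.14 (edgeR adjusted p = 0.0413), and the call was lost without Young 1, Young 3, Young 5, Old 7, Old 8, Old 9 or Old_CP2 11 (edgeR adjusted p = 0.101, 0.0517, 0.107, 0.104, 0.0937, 0.0618 and 0.0533). Cp overlaps Hps3 on the genome, which averaged 20.94 CPM in Old_CP2, 20.59 in Old and 19.29 in Young, with a log2 fold change of 0.09 for Old over Young. Steap4 (chromosome 5, 7960472 to 7982213), a metalloreductase for iron and copper, had 0.260, 0.418, 0.499 and 0.359 CPM in Old_CP2, 0.332, 0.324, 0.285 and 0.510 CPM in Old, and 0.337, 0.553, 0.345 and 0.580 CPM in Young. Its values overlapped fully and its log2 fold change was -0.30 ± 0.27 (edgeR adjusted p = 0.581).

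**Figure D2:**
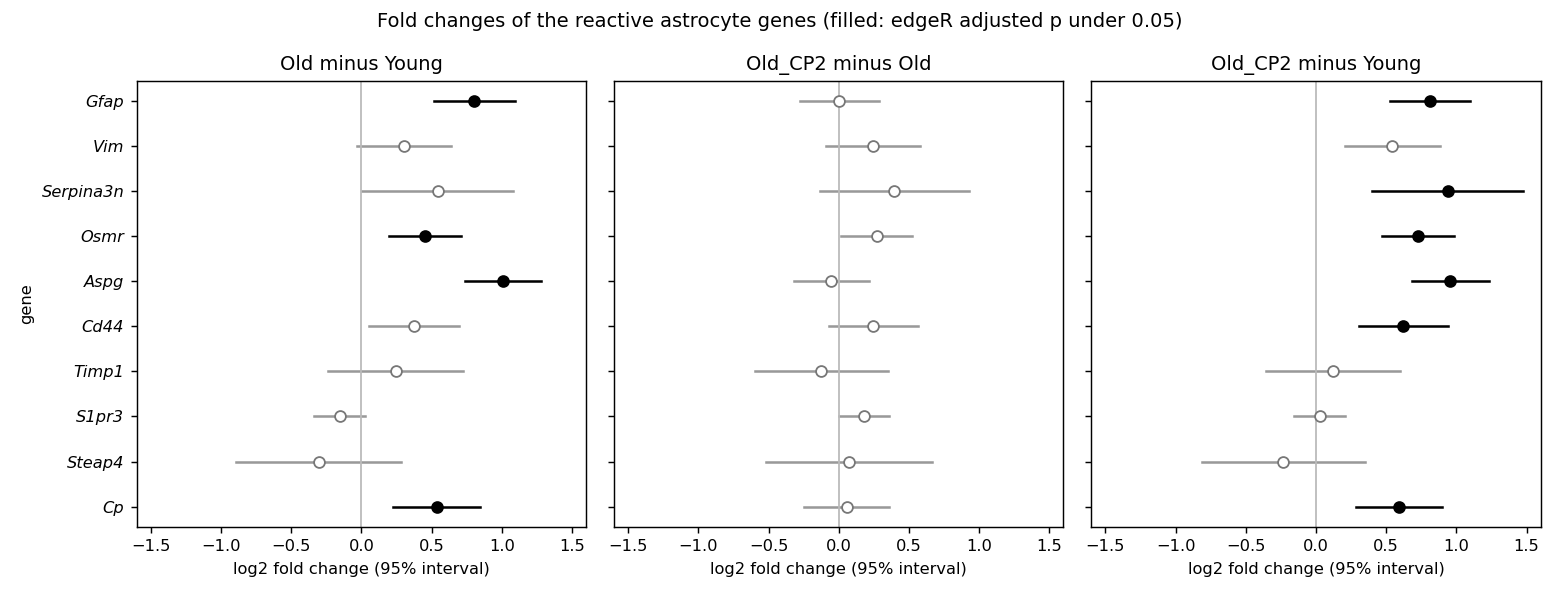
Log2 fold change of each gene with its 95% interval in the 3 comparisons, Old minus Young, Old_CP2 minus Old and Old_CP2 minus Young. Filled points were called at an edgeR adjusted p under 0.05: 4 genes in the first panel, 0 in the second and 6 in the third.

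When the 4 libraries lowest in choroid plexus markers were left out, which left 2 Old libraries, Gfap and Aspg were still called higher in Old. The Old and Old_CP2 libraries kept had 811.2 to 989.1 CPM of these markers in sum, below the 1245 to 2007 CPM of Young. This fit therefore did not remove the difference in choroid plexus markers. Cp had a log2 fold change of 0.50 there, against 0.54 with all libraries, and was not called (edgeR adjusted p = 0.135), and Osmr had 0.33, against 0.46, and was not called (edgeR adjusted p = 0.292). Serpina3n, which was not called in either fit, had 0.07 there, against 0.54. When libraries were scaled to the 17 astrocyte identity markers instead of to all genes, the median log2 fold change of all genes moved to -0.25. Osmr (0.20, edgeR adjusted p = 0.225) and Cp (0.29, edgeR adjusted p = 0.0867) were again not called. S1pr3 was called lower on that scale, at -0.40 (edgeR adjusted p = 0.00391), as were 10131 of the 22553 genes tested. Gfap and Aspg remained called higher there, among 444 genes called higher. Summed meningeal fibroblast markers were at 159.6 to 236 CPM in Old and 130.9 to 228.6 CPM in Young, and 3 of the 9 were called higher in Old (Dcn, Lum and Slc6a13). The Slc6a13 call was lost in 9 of the 12 fits that left out 1 library, and the Lum call in 6. Both were also lost without the 4 libraries lowest in choroid plexus markers (edgeR adjusted p = 0.229 and 0.0534). Summed microglia markers were at 437.9 to 451.5 CPM in Old and 307.3 to 395.1 CPM in Young, with 2 of 10 called higher, C1qa among them. All 10 lay above 0, and 9 had an unadjusted p under 0.05, as did 21.4% of all genes. Of the ependymal markers, 2 of 6 were called lower. All 6 ependymal markers had an unadjusted p under 0.05, with 0 above 0 and a median of -1.21. Their part in the levels of Vim, Cd44, Timp1 and Cp, which such cells can also express, was not tested.

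The comparison of Old_CP2 with Old asks what the complex I inhibitor did at the same age. None of the 10 genes was called: edgeR, DESeq2 and limma voom each gave 0 calls, and 1 gene, Osmr, had an unadjusted edgeR p under 0.05. Over all genes, 0.0443% were called, 0.0266% higher and 0.0177% lower, and 6.31% had an unadjusted p under 0.05. The median over the 10 genes was 0.13 on the log2 scale against 0.00 over all genes, and 8 of the 10 lay above 0, as did 50.6% of all genes.

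For Gfap the means were 375.6 ± 33.0 CPM in Old_CP2 and 374.3 ± 80.4 CPM in Old (SD, n = 4 each), a log2 fold change of 0.01 with a 95% interval of -0.28 to 0.29. Without Old 7 the difference was 0.17. Aspg and Cp had differences of -0.05 and 0.06, with intervals of -0.32 to 0.22 and -0.25 to 0.36. Serpina3n averaged 39.61 ± 9.53 CPM in Old_CP2 and 30.12 ± 9.91 CPM in Old, a difference of 0.39 with an interval of -0.14 to 0.93. Osmr had a difference of 0.27 ± 0.12 (edgeR unadjusted p = 0.0367, adjusted p = 0.744), with 3 of 4 Old_CP2 libraries above the highest Old library. S1pr3 was the 1 gene whose 4 and 4 values did not overlap, at 7.70 to 8.27 CPM in Old_CP2 and 6.61 to 7.31 CPM in Old, with a difference of 0.18 ± 0.08 (edgeR adjusted p = 0.795). Such separation was found in 3.44% of all genes, 1.62% higher and 1.82% lower. Vim and Cd44 had differences of 0.24 ± 0.16 and 0.25 ± 0.15, and Timp1 and Steap4 of -0.12 ± 0.22 and 0.07 ± 0.27, all with overlapping values. Without the 4 libraries lowest in choroid plexus markers, Gfap was at 0.26 and Serpina3n at 1.02 in this comparison, neither called (edgeR adjusted p = 0.856 and 0.236).

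Scaling to the astrocyte identity markers moved the median of all genes by 0.18 in this comparison, and Osmr (0.45, edgeR adjusted p = 0.0458) and S1pr3 (0.36, edgeR adjusted p = 0.0391) were then called higher in Old_CP2. On that scale 2918 genes were called, of which 2882 were higher. The markers behind this scale were themselves lower in Old_CP2, with 16 of 17 below 0 and a median of -0.18, and 0 called by edgeR, against 10 at an unadjusted p under 0.05. Of them, Acsbg1, an acyl-CoA synthetase, averaged 150.3 ± 12.5 CPM in Old_CP2 and 183.6 ± 6.16 CPM in Old (edgeR adjusted p = 0.107). Fgfr3, a growth factor receptor of astrocytes, averaged 140.2 ± 6.69 and 166.4 ± 6.71 CPM (edgeR adjusted p = 0.171). DESeq2 called both lower, at an adjusted p of 0.000701 and 0.00514. Without Old_CP2 15, edgeR called Acsbg1 lower as well (-0.35, edgeR adjusted p = 0.004755). Summed pericyte and smooth muscle markers did not overlap, at 169.3 to 241.9 CPM in Old_CP2 and 132.4 to 158.8 CPM in Old, with 0 of 8 called by edgeR and 5 at an unadjusted p under 0.05. Among them Rgs5, a pericyte gene, averaged 83.31 ± 6.86 and 58.52 ± 3.06 CPM, 0.51 higher and just short of a call (edgeR adjusted p = 0.0981). It was called higher by DESeq2 (adjusted p = 0.000288) and by edgeR with no filter on low counts, in the fit of 2 groups, on the astrocyte scale and without Young 4 (edgeR adjusted p = 0.0432, 0.0341, 0.0129 and 0.0139). Of the red blood cell markers, 2 of 5 were called higher (Hba-a1 and Hba-a2). Vessel cells also make Osmr and S1pr3, and their part in these values was not tested.

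**Figure D3:**
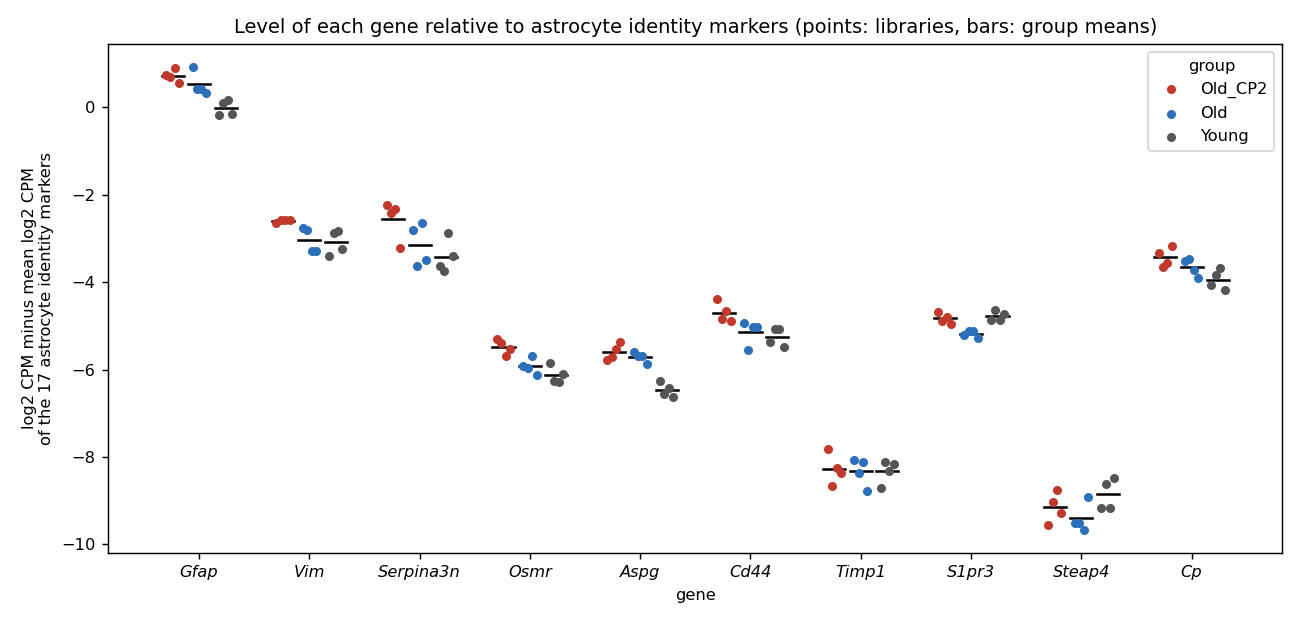
Log2 CPM of each gene minus the mean log2 CPM of the 17 astrocyte identity markers in the same library (points) with group means (bars), for Old_CP2, Old and Young. Gfap averaged 0.73 in Old_CP2, 0.53 in Old and -0.01 in Young. S1pr3 averaged -4.82, -5.18 and -4.78.

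The comparison of Old_CP2 with Young shares its Old_CP2 and its Young libraries with the comparisons above. Gfap, Serpina3n, Osmr, Aspg, Cd44 and Cp were called higher in Old_CP2, so 6 of 10 genes, against 4.63% of all genes called higher, 2.94% called lower and so 7.57% either way. The median was 0.61 on the log2 scale against -0.01 over all genes, and 9 of 10 lay above 0, as did 48.2% of all genes. In 6 genes (Gfap, Vim, Osmr, Aspg, Cd44 and Cp) every Old_CP2 library lay above every Young library, which held for 8.42% of all genes.

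Aspg had the largest log2 fold change over Young, 0.96 ± 0.13 (edgeR adjusted p = 0.0012). Gfap stood at 0.81 ± 0.13 (edgeR adjusted p = 0.00361), the value it had in Old over Young. Osmr stood at 0.73 ± 0.12 (edgeR adjusted p = 0.00352). These 3 calls held in every fit that left out 1 library. Serpina3n had 0.94 ± 0.25 (edgeR adjusted p = 0.038), with Old_CP2 15 at 25.42 CPM inside the Young range, and the call was lost without Young 1, Young 3, Young 5, Old_CP2 11, Old_CP2 12 or Old_CP2 13 (edgeR adjusted p = 0.1, 0.092, 0.0825, 0.101, 0.0859 and 0.0797). Cd44 had 0.62 ± 0.15 (edgeR adjusted p = 0.0233), and was not called without Young 1, Young 5 or Old_CP2 11 (edgeR adjusted p = 0.0648, 0.0631 and 0.0733). Cp had 0.59 ± 0.14 (edgeR adjusted p = 0.0254), and was not called without Young 1, Young 5, Old_CP2 11 or Old_CP2 15 (edgeR adjusted p = 0.0722, 0.069, 0.0628 and 0.0519). Vim, at 37.52 ± 2.56 CPM in Old_CP2 and 25.72 ± 5.62 CPM in Young, missed the threshold narrowly (0.54 ± 0.16, edgeR adjusted p = 0.0508). It was called without Young 3, Old 7, Old 9 or Old 10 (edgeR adjusted p = 0.0407, 0.0401, 0.0469 and 0.0496), by DESeq2 (adjusted p = 0.00738) and by limma voom (adjusted p = 0.0406). Timp1, S1pr3 and Steap4 had 0.12, 0.03 and -0.23 on the log2 scale and edgeR adjusted p of 0.801, 0.893 and 0.664. Without the 4 libraries lowest in choroid plexus markers, Cd44 (0.58, edgeR adjusted p = 0.104) and Cp (0.42, edgeR adjusted p = 0.167) were not called. On the astrocyte scale Serpina3n was not called (edgeR adjusted p = 0.0509), and S1pr3 was at -0.04.

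How the genes varied among libraries of 1 group was described by a likeness, the Pearson coefficient between 2 genes of each library's log2 CPM minus its group mean, over the 12 libraries. All points share the libraries' depth, scaling and dissection. Of the 45 pairs of the 10 genes, 29 were above 0 and 6 above 0.5, with a median of 0.09. Vim and Cp were most alike (0.77), then Gfap and Vim (0.76), and Timp1 and S1pr3 (0.72), of which Timp1 rests on few reads. Gfap and Cd44 (0.54), Aspg and Cp (0.53) and Serpina3n and Cd44 (0.52) came next. Osmr ran against Steap4 (-0.55), Vim (-0.47) and Gfap (-0.39). With each library left out in turn, the median over pairs ran from 0.03 to 0.22 and the value for Gfap and Vim from 0.71 to 0.89.

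**Figure D4:**
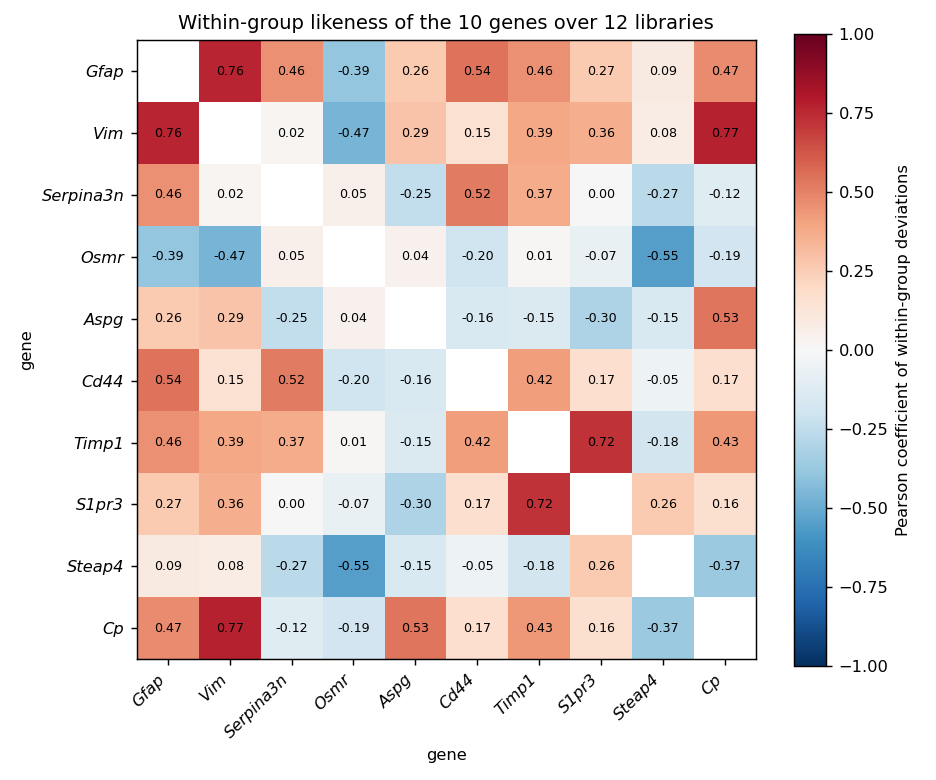
Likeness of each pair of the 10 genes, as the Pearson coefficient of log2 CPM deviations from the group mean over 12 libraries (colour and printed value, from -1 to 1). Vim is high with Gfap (0.76) and with Cp (0.77), with 0.47 for Gfap and Cp, while 6 of the 9 values of Osmr are below 0.

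Averaged over the 10 genes, Old 7 lay highest above its group mean (0.18 on the log2 scale, 8 of 10 genes above) and Young 1 lowest below its own (-0.18, 2 of 10 above). Old 10 had 2 of 10 genes above its group mean and Old_CP2 13 had 8. Likeness to Gfap was ranked among 13718 genes with a mean of at least 1 CPM. Unnamed gene models, mitochondrial genes, microRNAs and pseudogenes were left out by their names. Those most like Gfap over the 12 libraries were Kank2 (0.91), Papss1 (0.91), Ecm2 (0.90), Fat1 (0.89) and Parp4 (0.88). These are the highest values among the 13718 genes and were not computed again without Old 7. Vim stood at rank 114 of the 13718 genes, Cd44 at 881, Cp at 1332 and Serpina3n at 1463. S1pr3 stood at 3111 and Aspg at 3125, while Osmr stood at 10942.

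Other genes of reactive astrocytes were called in part. Of 3 further genes often counted as general marks of reactivity (Lcn2, Hspb1 and Cxcl10), only Lcn2, a secreted iron-siderophore carrier, was called higher in Old over Young. It had 0.310, 0.147, 0.174 and 1.03 CPM in Old and 0.026, 0.055, 0.089 and 0.078 CPM in Young, with all Old libraries above all Young ones (2.38 ± 0.56, edgeR adjusted p = 0.0255). It was not called by limma voom (adjusted p = 0.0675). Its fold rested much on Old 10, without which it was 1.46 (edgeR adjusted p = 0.0513), and the call was also lost without any 1 Young library (edgeR adjusted p = 0.0504 to 0.0651). The small heat shock gene Hspb1 averaged 2.48 ± 0.29 CPM in Old_CP2, 2.43 ± 0.24 in Old and 2.87 ± 0.41 in Young. The chemokine gene Cxcl10 averaged 0.94 ± 0.62, 0.46 ± 0.08 and 0.56 ± 0.90 CPM in the same order of groups, and its Young mean rested on Young 4 at 1.90 CPM. With all libraries and the scaling to all genes, neither was called in any comparison. Without Young 4, Cxcl10 was called higher in Old_CP2 than in Young, at 2.77 against 0.73 with all libraries (edgeR adjusted p = 0.0299). On the astrocyte scale Hspb1 was called lower in Old than in Young (-0.48, edgeR adjusted p = 0.00731), as were 10131 of the 22553 genes tested.

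Of 12 genes of the neuroinflammatory type of reactive astrocyte, sometimes called A1, 1 was called higher in Old over Young. In Old_CP2 over Young 7 were called higher, and the medians were 0.34 and 0.68. Of all genes, 3.96% and 4.63% were called higher in these comparisons. Among the 7 calls, those of Serping1, Gbp2 and Srgn were lost in 5, 5 and 6 of the 12 fits that left out 1 library. Between Old_CP2 and Old, 0 of the 12 genes were called by edgeR and 3 had an unadjusted p under 0.05. All 12 genes lay above 0 there, with a median of 0.33. Of all genes, 6.31% had an unadjusted p under 0.05 and 50.6% lay above 0. Ggta1, a sugar transferase, averaged 5.73 ± 0.75 CPM in Old_CP2, 4.29 ± 0.35 in Old and 3.34 ± 0.21 in Young. It was 0.78 ± 0.11 higher in Old_CP2 than in Young (edgeR adjusted p = 0.00158). Between Old_CP2 and Old its difference was 0.42 ± 0.11 (edgeR adjusted p = 0.352). Psmb8, a subunit of the immunoproteasome, averaged 4.52 ± 1.47, 3.06 ± 0.40 and 1.99 ± 0.44 CPM in the same order and was 1.18 ± 0.22 higher in Old_CP2 than in Young (edgeR adjusted p = 0.00702). This was 0.75 and not called without the 4 libraries lowest in choroid plexus markers (edgeR adjusted p = 0.0609). Fbln5, an elastic fibre protein, was called in both comparisons with Young, at 0.65 (edgeR adjusted p = 0.0275) and 0.71 (edgeR adjusted p = 0.0165). The first of these calls was lost without Young 1, Young 4, Young 5, Old 7 or Old 10 (edgeR adjusted p = 0.0507 to 0.0659). Ugt1a1, a glucuronidating enzyme, was 0.65 higher in Old_CP2 than in Young (edgeR adjusted p = 0.0263) and was not called without Young 1, Young 3, Old_CP2 11 or Old_CP2 12 (edgeR adjusted p = 0.055 to 0.0781). Without the 4 libraries lowest in choroid plexus markers, Fbln5 in Old over Young (0.59, edgeR adjusted p = 0.11) and Ugt1a1 in Old_CP2 over Young (0.74, edgeR adjusted p = 0.0703) were not called. On the astrocyte scale Ggta1 was called higher in Old_CP2 than in Old (0.60, edgeR adjusted p = 0.0357), as were 2882 of the 22553 genes tested. Several of the 12 genes are also expressed by microglia or vessels, whose part was not tested. Of 11 genes of the injury type, A2, 0 were called in Old over Young (2 at an unadjusted p under 0.05) and 1 in Old_CP2 over Young. This was the transglutaminase gene Tgm1 (1.19, edgeR adjusted p = 0.0244), whose call was lost without Old_CP2 11, Old_CP2 12 or Old_CP2 13 (edgeR adjusted p = 0.0518 to 0.0616) and without the 4 libraries lowest in choroid plexus markers (1.28, edgeR adjusted p = 0.102).

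Few of the signalling genes around Osmr were called. Of 20 genes of gp130 cytokines, their receptors and STAT signalling, 3 were called higher and 0 lower in Old over Young, 0 either way in Old_CP2 over Old (4 at an unadjusted p under 0.05), and 3 higher in Old_CP2 over Young. The transcription factor gene Stat5a averaged 3.04 ± 0.44 CPM in Old_CP2, 3.37 ± 0.24 in Old and 2.24 ± 0.23 in Young. It was 0.58 higher in Old than in Young (edgeR adjusted p = 0.0129). Its call over Young in Old_CP2 (0.44, edgeR adjusted p = 0.0426) was lost in 9 of the 12 fits that left out 1 library, those without Young 1, Young 4, Young 5, Old 8, Old 9, Old 10, Old_CP2 11, Old_CP2 13 or Old_CP2 15 (edgeR adjusted p = 0.052 to 0.104). Lifr, the receptor for leukaemia inhibitory factor, averaged 67.7 ± 6.58 CPM in Old_CP2, 66.13 ± 5.89 in Old and 52.32 ± 1.97 in Young. It was 0.34 higher in Old than in Young (edgeR adjusted p = 0.0196; not called without Young 4, Old 7 or Old 9, at 0.0511 to 0.0576) and 0.37 higher in Old_CP2 than in Young (edgeR adjusted p = 0.0109). On the astrocyte scale Lifr was at 0.09 in Old (edgeR adjusted p = 0.43) and 0.30 in Old_CP2 (edgeR adjusted p = 0.0532) over Young, and without the 4 libraries lowest in choroid plexus markers at 0.24 (edgeR adjusted p = 0.155) and 0.30 (edgeR adjusted p = 0.0666), with no call in either. Its ligand gene Lif was 0.66 higher in Old than in Young (edgeR adjusted p = 0.0384), which was lost without any 1 Young library and without Old 7, Old 9 or Old 10 (edgeR adjusted p = 0.0568 to 0.0898), and on the astrocyte scale (0.42, edgeR adjusted p = 0.0681). Without the 4 libraries lowest in choroid plexus markers, Lif (0.66, edgeR adjusted p = 0.183) and Stat5a (0.56, edgeR adjusted p = 0.068) were not called in Old over Young, nor was Stat5a in Old_CP2 over Young (0.31, edgeR adjusted p = 0.236). Stat3 itself averaged 53.8 ± 3.62 CPM in Old_CP2, 49.39 ± 2.48 in Old and 47.1 ± 4.22 in Young, without a call. Its target and brake Socs3 was not called either, at 3.23 ± 0.36, 2.71 ± 0.23 and 2.59 ± 0.24 CPM.

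Among the partners of the other members, calls were few as well. Of 5 further intermediate filament genes, synemin (Synm) alone was called, 0.23 higher in Old than in Young (edgeR adjusted p = 0.0334) and 0.26 higher in Old_CP2 than in Young (edgeR adjusted p = 0.0179). The first call was lost without any 1 Young library and without Old 7, Old 9 or Old 10 (edgeR adjusted p = 0.0552 to 0.0713), and the second without Old_CP2 12 (edgeR adjusted p = 0.0507). On the astrocyte scale Synm was at 0.19 in Old_CP2 (edgeR adjusted p = 0.0788) and -0.02 in Old (edgeR adjusted p = 0.813) over Young, and without the 4 libraries lowest in choroid plexus markers it was at 0.19 in Old over Young (edgeR adjusted p = 0.21). Of 11 genes of sphingosine 1-phosphate handling beside S1pr3, 2 were called higher in Old than in Young: Sgpl1, the lyase that degrades the lipid (0.20, edgeR adjusted p = 0.0185), and S1pr1, another of its receptors (0.26, edgeR adjusted p = 0.0236). Sgpl1 was also 0.22 higher in Old_CP2 than in Young (edgeR adjusted p = 0.00945), while on the astrocyte scale it was at 0.15 in Old_CP2 (edgeR adjusted p = 0.125) and -0.05 in Old (edgeR adjusted p = 0.483) over Young. Leaving out the 4 libraries lowest in choroid plexus markers, it was at 0.24 in Old_CP2 (edgeR adjusted p = 0.0652) and 0.23 in Old (edgeR adjusted p = 0.0931) over Young, not called in either. The S1pr1 call was lost without Young 1, Young 4, Old 8, Old 9 or Old 10 (edgeR adjusted p = 0.0505 to 0.0635), and on the astrocyte scale the value was 0.01 (edgeR adjusted p = 0.884).

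For Cd44, 2 of 11 genes of hyaluronan turnover and Cd44 ligands were called higher in both comparisons with Young. Spp1, which encodes the ligand osteopontin, had 11.6, 9.42, 7.69 and 39.78 CPM in Old_CP2, 64.25, 19.68, 18.23 and 8.90 CPM in Old, and 3.82, 2.49, 2.43 and 3.01 CPM in Young. All Old_CP2 and Old libraries lay above all Young ones, over a wide spread, with log2 fold changes over Young of 2.53 in Old_CP2 (edgeR adjusted p = 0.0281) and 3.23 in Old (edgeR adjusted p = 0.0111). The Old_CP2 call was lost without Old_CP2 15, where the fold change was 1.71 (edgeR adjusted p = 0.0637), without any 1 Young library (edgeR adjusted p = 0.059 to 0.0755), and by limma voom (adjusted p = 0.124). Without Old 7, the fold change of Old over Young was 2.41, still called (edgeR adjusted p = 0.0222). Cemip, which breaks down hyaluronan, averaged 25.46 ± 2.33 CPM in Old_CP2, 25.51 ± 2.99 in Old and 19.4 ± 0.53 in Young, 0.39 higher in each (edgeR adjusted p = 0.0141 in Old_CP2 and 0.0152 in Old). On the astrocyte scale neither was called, at 0.32 in Old_CP2 (edgeR adjusted p = 0.071) and 0.14 in Old (edgeR adjusted p = 0.253).

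For Timp1, the 12 tested metalloproteinases and inhibitors held the clearest decrease. The membrane enzyme gene Mmp15 averaged 23.38 ± 1.32 CPM in Old_CP2, 25.69 ± 2.05 in Old and 41.76 ± 2.46 in Young, with log2 fold changes over Young of -0.84 in Old_CP2 (edgeR adjusted p = 3.02e-05) and -0.70 in Old (edgeR adjusted p = 0.000251). Mmp12, a macrophage elastase, was higher in Old over Young at 0.37 ± 0.42 against 0.024 ± 0.011 CPM (3.07, edgeR adjusted p = 0.0249), a call lost without Young 3, Young 4, Young 5 or Old 7 (edgeR adjusted p = 0.0607 to 0.0703), with a fold change of 2.04 without Old 7. It was also lost by limma voom (adjusted p = 0.136) and without the 4 libraries lowest in choroid plexus markers (1.08, edgeR adjusted p = 0.31). Mmp2 was lower in Old_CP2 than in Young (-0.60, edgeR adjusted p = 0.0476), and this was lost in 9 of the 12 fits, all but those without Old 8, Old 9 or Old_CP2 15. Between Old_CP2 and Old, Mmp14 had the smallest p of this list, at 10.64 ± 0.57 CPM in Old_CP2 and 14.39 ± 1.08 CPM in Old without overlap, and was not called by edgeR (adjusted p = 0.193), while DESeq2 called it lower (-0.43, adjusted p = 0.00571). Of 13 iron and copper genes beside Cp and Steap4, 1 was called, the copper importer gene Slc31a1, at 22.56 ± 2.61 CPM in Old_CP2, 21.73 ± 2.22 in Old and 28.54 ± 1.87 in Young. Its log2 fold change over Young was -0.34 in Old_CP2 (edgeR adjusted p = 0.0388) and -0.39 in Old (edgeR adjusted p = 0.023). The Old_CP2 call was lost without Young 3, Young 4, Young 5, Old_CP2 11 or Old_CP2 15 (edgeR adjusted p = 0.0723 to 0.107), and the Old call without Young 3, Young 4, Old 7 or Old 9 (edgeR adjusted p = 0.0589 to 0.0712). With the 4 libraries lowest in choroid plexus markers left out, Slc31a1 was at -0.21 in Old_CP2 (edgeR adjusted p = 0.137) and -0.27 in Old (edgeR adjusted p = 0.0854), and Mmp2 at -0.65 in Old_CP2 (edgeR adjusted p = 0.068), all over Young and not called.

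Of 7 tested relatives of Serpina3n in the same cluster, 0 were called in Old over Young, 0 in Old_CP2 over Old, each with 1 at an unadjusted p under 0.05, and 1 in Old_CP2 over Young. Serpina3g averaged 1.85 ± 0.93 CPM in Old_CP2, 0.99 ± 0.23 in Old and 0.50 ± 0.18 in Young, with no overlap between any pair of groups. It was 1.84 ± 0.33 higher in Old_CP2 than in Young (edgeR adjusted p = 0.00583). Its difference of 0.89 ± 0.32 from Old was not called (edgeR adjusted p = 0.688). On the astrocyte scale it was called higher in Old_CP2 than in Old (1.05, edgeR adjusted p = 0.0439), as were 2882 of the 22553 genes tested. The summed level of the Serpina3n relatives was 3.99 to 5.39 CPM in Old_CP2, 1.59 to 4.53 in Old and 0.803 to 2.80 in Young.

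The astrocyte identity markers rose in part in Old over Young. All 17 lay above 0 and 6 were called higher, with a median of 0.24. Gjb6, a gap junction gene, averaged 54.88 ± 2.72 CPM in Old_CP2, 62.17 ± 2.75 in Old and 49.76 ± 3.03 in Young (Old over Young 0.32, edgeR adjusted p = 0.00585). Fgfr3 was 0.30, the glycolytic enzyme gene Aldoc 0.34 and Acsbg1 0.26 higher in Old than in Young (edgeR adjusted p = 0.00641, 0.00782 and 0.0129). The other 2 called were Gja1 and Slc4a4, whose calls were lost in 3 and 4 of the 12 fits that left out 1 library. Gjb6 (0.32, edgeR adjusted p = 0.0508) and Slc4a4 (0.25, edgeR adjusted p = 0.104) were not called without the 4 libraries lowest in choroid plexus markers. On the scale set by these markers themselves, none of the 6 was called. That scale removes the change the markers share, so it cannot show whether they differ between groups. In Old_CP2 over Young, 0 of the 17 were called by edgeR, 3 had an unadjusted p under 0.05, and the median was 0.09. Relative to the mean of the markers, on the log2 scale, Gfap was at 0.73 in Old_CP2, 0.53 in Old and -0.01 in Young, Aspg at -5.60, -5.71 and -6.47, Osmr at -5.48, -5.92 and -6.13, Cd44 at -4.70, -5.13 and -5.25, and Vim at -2.60, -3.03 and -3.09. Timp1 was at -8.28, -8.33 and -8.33 and Steap4 at -9.15, -9.40 and -8.86 in the same order of groups.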

How the data were processed

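RNA-seq gene counts of 12 mouse brain libraries were analysed. The authors' deposited table held a gene count and an RPKM value per library, per the file headers, with a coding length per gene. Per the submitters' processing notes, bcl2fastq, TopHat and featureCounts of Subread were used on mm10. Their versions and the annotation release are not given in the sources used here. Sequencing was paired-end with 101-base reads on a HiSeq 4000, per the design text in the labels. The counts came to 79.9 to 85.4% of the total the RPKM values imply, and RPKM was used only to compare levels between genes.

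Depth was 70548781 to 99449665 counts per library, and Steap4 and Timp1, at fewest reads, are the least precise. The test was edgeR 4.0.16 (R 4.3.3) on the counts: filterByExpr, TMM factors, and a quasi-likelihood fit on all 12 libraries with group as the only term, prior count 2, two-sided tests and Benjamini-Hochberg adjustment over 22553 genes. Genes were called at an adjusted p under 0.05, and SE comes from the F statistic. The script was tested on simulated data. No libraries within a group were copies of each other. DESeq2 1.42.0 and limma 3.58.1 (voom) were alternatives, as were median-ratio (RLE) factors, scaling to 17 astrocyte markers, no filter, fits of 2 groups, and fits without single libraries or without the 4 libraries lowest in choroid plexus markers. Likeness and overlap under other settings were added after seeing the data.

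The 10 genes, the 22 gene lists and the tests were chosen with earlier results of these data known. All 10 genes are named in each comparison. Of other lists, called genes are named, up to the 4 of smallest p, or where none is called up to 2 with their values, except that lists of other cell types are given mainly as counts. Some genes of this rule are not reported here. The 5 genes most like Gfap are named too. Promoters and motifs were searched with Python 3.11.15.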

Additional observations from a re-analysis of the deposited data

Results flagged for a closer look

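In 30 groups of 4 libraries (10 genes in 3 groups), 2 values stood far from the other 3 of their group, by Dixon's gap-to-range ratio at its 95% critical value; chance gives about 1 in 20. Gfap was at 494.4 CPM in Old 7, against 325.1 to 343.2 CPM in the other Old libraries. Serpina3n was at 25.42 CPM in Old_CP2 15, against 42.78 to 45.2 CPM in the other Old_CP2 libraries. Both libraries were among the 4 lowest in choroid plexus markers, with 175.5 CPM in Old 7 and 70.86 CPM in Old_CP2 15. They also had the highest summed midbrain and hindbrain markers of their groups, at 54.84 CPM in Old 7 and 59.71 CPM in Old_CP2 15. The part of these differences in the 2 values was not tested.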

How the results depend on the processing

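No paired analysis was possible because the groups share no replicate numbers. The calls of Gfap and Aspg over Young, in both Old_CP2 and Old, and of Osmr in Old_CP2 over Young held under all alternatives run. None of these alternatives adjusted for midbrain and hindbrain markers, whose summed levels in Old and Old_CP2 lay above those in Young. Leaving out the 4 libraries lowest in choroid plexus markers still left the summed level of those markers lower in Old and Old_CP2 than in Young. Calls over all genes varied most. In Old over Young 1511 genes were called, against 10575 with astrocyte marker scaling (444 higher and 10131 lower, where all genes shifted by -0.25), 2479 with DESeq2, 514 without the 4 libraries lowest in choroid plexus markers, and 855 to 1706 with 1 library left out (fewest without Young 4; 971, 934 and 952 without Young 5, Old 7 and Old 9). In Old_CP2 over Old 10 genes were called, against 2918 with astrocyte marker scaling, 17 with no filter, 108 with DESeq2, 21 without the 4 libraries, and 6 (without Old 9) to 38 (without Old_CP2 15). In Old_CP2 over Young 1707 were called, against 1665 with astrocyte marker scaling (596 higher and 1069 lower, with 1045 and 662 in the reported fit), 2647 with DESeq2, 709 without the 4 libraries, and 827 (without Old_CP2 11) to 1930, with 1050, 1036 and 1043 without Young 1, Young 4 and Old_CP2 12. Of the 10 genes, 2 were called in Old over Young without the 4 libraries and 2 to 4 with 1 library left out (2 without Young 3, Young 5, Old 7 or Old 9), 2 in Old_CP2 over Old with astrocyte marker scaling and otherwise 0, and 3 to 7 in Old_CP2 over Young with 1 library left out (3 without Young 1, Young 5 or Old_CP2 11). In Old over Young, 3 were called in the fit of 2 groups and 3 with astrocyte marker scaling (2 higher and 1 lower). Genes called in the other lists numbered 35 in Old over Young (73 with astrocyte marker scaling, 55 with DESeq2, 23 to 41 with 1 library left out), 2 in Old_CP2 over Old (38, 5 with no filter, 12, and 1 to 4) and 42 in Old_CP2 over Young (24 to 46), of which 17, 1 and 22 were called in all 12 fits that left out 1 library. Non-overlap between Old_CP2 and Old held for 1 gene, for 3 with astrocyte marker scaling, and for 1 to 3 with 1 library left out, beside 3.44%, 19.0% and 3.44 to 12.1% of all genes in the same settings. The likeness of Gfap and Vim was 0.70 on that scale and 0.71 to 0.89 with 1 library left out, and the median over pairs 0.03 to 0.22.

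Signs turned only in values that were not called, apart from 5 named below. Without the 4 libraries, Timp1 was at -0.0088 in Old over Young and -0.0605 in Old_CP2 over Young, Steap4 at 0.0136 in Old_CP2 over Young, and Aspg (0.0022), Cp (-0.0804) and Hspb1 (-0.0489) turned in Old_CP2 over Old. With astrocyte marker scaling, Aspg (0.12) and Timp1 (0.0529) turned in Old_CP2 over Old, and S1pr3 (-0.0446) in Old_CP2 over Young. On the same scale the called genes Synm (-0.0193), Sgpl1 (-0.0507), Gja1 (-0.03), Slc4a4 (-0.0025) and Gad1 (-7e-04) turned in Old over Young. In the fit of 2 groups Gfap was at -4e-04 in Old_CP2 over Old, and with voom Cxcl10 was at 1.70 in Old over Young. With 1 library left out, ranges that crossed 0 were, in Old_CP2 over Old, -0.0619 to 0.166 for Gfap, -0.161 to 0.0318 for Aspg, -0.0716 to 0.269 for Steap4, -0.0661 to 0.123 for Cp, -0.82 to 0.35 for Lcn2 and -0.0328 to 0.0995 for Hspb1, in Old_CP2 over Young, -0.0181 to 0.237 for Timp1 and -0.0198 to 0.102 for S1pr3, and in Old over Young, -0.67 to 1.77 for Cxcl10. Fewer libraries or another scale are the alternatives' own construction, and other causes were not tested. Depth limits Timp1 and Steap4 most, at 22 to 88 reads a library.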
